A study of Saccharomyces cerevisiae with 4 samples.

Results

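The genes described here encode the cohesin ring of budding yeast and the proteins that protect it or reorient kinetochores in meiosis I. They are *REC8* (YPR007C), *MCD1* (YDL003W), *SMC1* (YFL008W), *SMC3* (YJL074C), *IRR1* (YIL026C, also called *SCC3*), *SGO1* (YOR073W), *SPO13* (YHR014W), *MAM1* (YER106W), *CSM1* (YCR086W) and *LRS4* (YDR439W). The 10 genes were taken by systematic ORF name, and all 10 were among the 5371 ORFs for which footprints were quantified.

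Footprints, the mRNA fragments that translating ribosomes shield from nuclease, were sequenced from 2 *dbp1Δ* and 2 wild-type libraries of *Saccharomyces cerevisiae* SK1, a strain background that sporulates efficiently and synchronously. The *dbp1Δ* cells lacked the ORF of *DBP1*, which encodes a DEAD-box RNA helicase, on both homologs. The ORF had been excised with Cas9 and a repair fragment, so that no marker was left at the locus. The wild-type cells kept *DBP1*, and the SK1 diploids of both genotypes are listed as *MATa/MATalpha* with the shared alleles *ho::LYS2*, *lys2*, *ura3*, *his3::hisG* and *trp1::hisG*. All cells were collected 6 h after transfer to sporulation (SPO) medium with 2% potassium acetate and were treated with cycloheximide before freezing, and the 2 libraries of a genotype are labelled biological replicates. Values are RPKM, reads scaled by ORF length and library size, and are given for replicate 1 and then replicate 2.

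Cohesin is a ring of SMC proteins closed by a kleisin subunit, and it holds sister chromatids together until separase cuts the kleisin. In mitosis the kleisin is Mcd1, whereas meiotic cells load Rec8, which is cut along chromosome arms at anaphase I and kept at centromeres until anaphase II. Shugoshin and Spo13 guard the centromeric Rec8, and monopolin clamps sister kinetochores so that they move to the same pole in meiosis I.

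*DBP1* was at 0.578 and 0.449 RPKM in *dbp1Δ*, against 164 and 147 RPKM in wild type. The depth recovered from the steps of the RPKM values was 5789193 and 4971128 reads for *dbp1Δ* and 5294778 and 4619171 reads for wild type. The cells carried the footprints of a meiotic program. The 18 early meiotic marker genes tested summed to 6424 and 4646 RPKM in *dbp1Δ*, against 5464 and 5175 RPKM in wild type, and the 18 middle meiotic marker genes summed to 66321 and 55913 RPKM in *dbp1Δ* and 54220 and 56868 RPKM in wild type. The excess in *dbp1Δ* replicate 1 came from *SPS4*, which was singled out after its values were seen. *SPS4* was at 24202 and 10956 RPKM in *dbp1Δ*, against 9923 and 11885 RPKM in wild type. Without it the sums were 42119 and 44956 RPKM in *dbp1Δ*, against 44297 and 44983 RPKM in wild type, so that *dbp1Δ* replicate 1 was the lowest. Of 9 haploid or mating-type specific genes, the 4 in the table summed to between 26.7 and 33.4 RPKM in any library, and the other 5 were not analysed here. *dbp1Δ* replicate 1 stood apart from the other libraries. Of the 5338 ORFs tested, those averaging at least 1 RPKM, 4.16% differed by 2-fold or more in RPKM + 0.5 between *dbp1Δ* replicates and 0.955% between wild-type replicates, whereas 0 of the 10 genes did in either pair.

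The meiotic kleisin *REC8* had the highest mean footprint density of the 10 genes. It was at 266 and 153 RPKM in *dbp1Δ* (3049 and 1510 reads), against 195 and 170 RPKM in wild type (2052 and 1557 reads). The *dbp1Δ* libraries thus lay on either side of both wild-type libraries, and the genotypes overlapped. Intervals for counting error alone (95%, exact Clopper-Pearson) ran from 256 to 275 RPKM in *dbp1Δ* replicate 1 and from 146 to 161 RPKM in *dbp1Δ* replicate 2, against 187 to 204 RPKM and 162 to 179 RPKM in wild type. The means were 209 ± 79.5 RPKM in *dbp1Δ* and 183 ± 18.0 RPKM in wild type (SD, n = 2 libraries each), a log2 fold change of 0.15 on the log2(RPKM + 0.5) scale (standard error 0.25). Its adjusted p in limma was 0.9998 (Benjamini-Hochberg over all tested ORFs). The direction depended on which *dbp1Δ* library was used. Without *dbp1Δ* replicate 2 the log2 fold change was 0.54, with an adjusted p of 0.0318 from limma, and without *dbp1Δ* replicate 1 it was -0.25, with an adjusted p of 0.538, where in both fits the lone library is assumed to vary like the wild-type pair.

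*MCD1*, the kleisin of the mitotic ring, had the lowest footprint density of the 10. It was at 1.68 and 2.94 RPKM in *dbp1Δ* (16 and 24 reads), against 3.68 and 2.51 RPKM in wild type (32 and 19 reads). Only 3.91% of all ORFs had a mean as low or lower. The counting intervals of all 4 libraries overlapped, from 0.963 to 2.74 RPKM in *dbp1Δ* replicate 1 to 2.52 to 5.20 RPKM in wild-type replicate 1. With 16 to 32 reads a library these intervals are wide, and their overlap alone does not show that *MCD1* was equal. The change fitted by limma was -0.37 on the log2 scale, with a standard error of 0.39 and an adjusted p of 0.9998.

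Set against each other within a library, which needs no scaling between libraries, the RPKM of *REC8* was 158 and 52.1 times that of *MCD1* in *dbp1Δ*, against 53.1 and 67.8 times in wild type. *MCD1* thus made up between 0.630% and 1.88% of the summed kleisin RPKM in the 4 libraries. The mean log2 ratio of *REC8* to *MCD1* was higher by 0.60 in *dbp1Δ*, within the pooled SD of 0.82 between libraries of one genotype, and with single libraries left out it ran from -0.20 (without *dbp1Δ* replicate 1) to 1.39 (without *dbp1Δ* replicate 2). With 2 libraries against 2, the smallest two-sided p that an exact permutation test allows for one value is 0.333, and none was made.

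**Figure D1:**
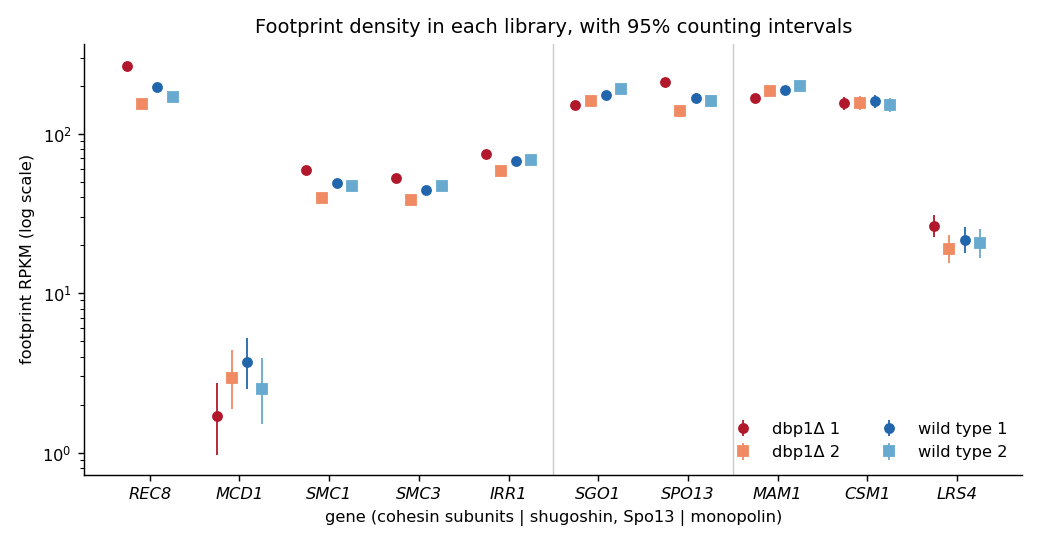
Footprint RPKM (log axis) of each gene in the 2 dbp1Δ and 2 wild-type libraries, with exact 95% Clopper-Pearson counting intervals as bars, which are hidden by the larger points. REC8, SPO13, SGO1, MAM1 and CSM1 lie between 140 and 266 RPKM, and MCD1 lies between 1.68 and 3.68 RPKM.

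The subunits shared by the mitotic and meiotic rings lay between the kleisins. *SMC1*, an ATPase arm of the ring, was at 59.6 and 39.5 RPKM in *dbp1Δ* and at 48.8 and 47.0 RPKM in wild type. *SMC3*, the other arm, was at 52.6 and 38.5 RPKM in *dbp1Δ* and at 44.2 and 47.0 RPKM in wild type. *IRR1*, the HEAT-repeat subunit that binds the kleisin, was at 74.2 and 58.7 RPKM in *dbp1Δ* and at 67.3 and 68.6 RPKM in wild type. In each of these genes *dbp1Δ* replicate 1 was the highest library, *dbp1Δ* replicate 2 was the lowest, and the wild-type libraries lay between them. The log2 fold changes were 0.02 for *SMC1*, -0.02 for *SMC3* and -0.04 for *IRR1*, with standard errors between 0.18 and 0.22 and an adjusted p of 0.9998 each from limma.

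Both SMC arms had nearly the same footprint density. The ratio of *SMC1* to *SMC3* RPKM was 1.13 and 1.03 in *dbp1Δ*, against 1.10 and 1.002 in wild type. *IRR1* was at 1.32 and 1.504 times the mean of the SMC arms in *dbp1Δ*, against 1.45 and 1.46 times in wild type. *REC8* exceeded the mean of the SMC arms 4.74 and 3.92 times in *dbp1Δ*, against 4.21 and 3.62 times in wild type. Footprint density is a measure of synthesis at the time of collection, not of protein already present in the cells.

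**Figure D2:**
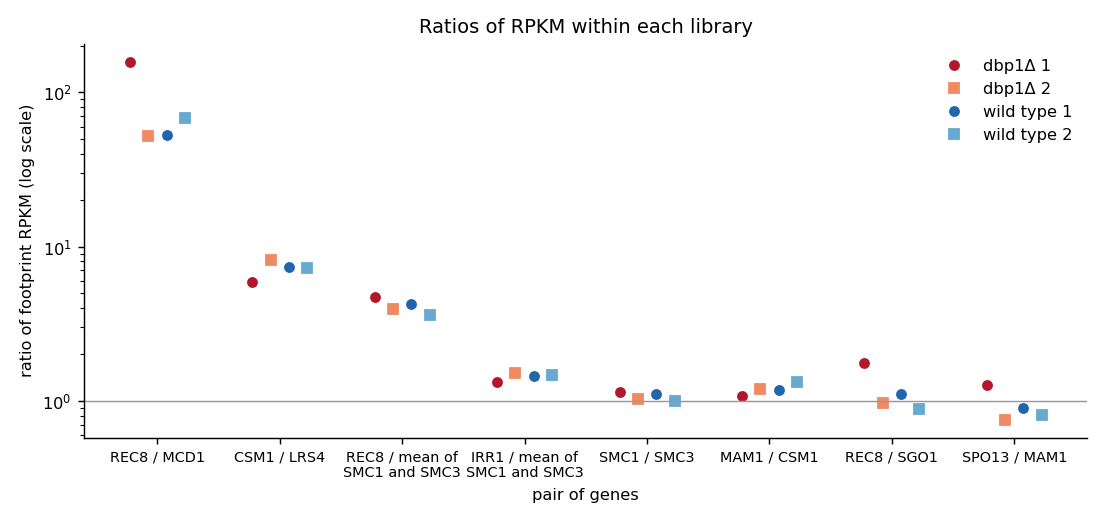
Ratio of footprint RPKM between pairs of genes within each of the 2 dbp1Δ and 2 wild-type libraries (log axis, with a line at a ratio of 1). SMC1 and SMC3 lie near 1, whereas REC8 exceeds MCD1 between 52.1 and 158 times and CSM1 exceeds LRS4 between 5.84 and 8.21 times.

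*SGO1* encodes shugoshin, which recruits the phosphatase PP2A to centromeres and so keeps Rec8 there unphosphorylated. It was at 151 and 159 RPKM in *dbp1Δ*, against 176 and 192 RPKM in wild type. Both *dbp1Δ* libraries lay below both wild-type libraries, although the counting intervals of *dbp1Δ* replicate 2 (151 to 168 RPKM) and wild-type replicate 1 (167 to 185 RPKM) overlapped. The means were 155 ± 5.50 RPKM in *dbp1Δ* and 184 ± 11.2 RPKM in wild type (SD, n = 2 libraries each). The log2 fold change was -0.24 (standard error 0.15). *SGO1* had the smallest p of the 10 genes, 0.148 unadjusted and 0.9998 after Benjamini-Hochberg adjustment in limma. With each library left out its log2 fold change lay between -0.30 and -0.18. Its sign could not turn there, because the libraries of the genotypes did not overlap.

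*SPO13*, a meiosis-specific gene needed for centromeric cohesion and for monopolin to stay at kinetochores, followed *REC8* rather than *SGO1* in its order of libraries. It was at 211 and 140 RPKM in *dbp1Δ*, against 167 and 159 RPKM in wild type, so the *dbp1Δ* libraries again enclosed the wild-type libraries. The limma fit gave a log2 fold change of 0.07, with a standard error of 0.21 and an adjusted p of 0.9998.

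Monopolin consists of the meiosis-specific subunit Mam1, the casein kinase Hrr25, and Csm1 and Lrs4, which also reside in the nucleolus outside meiosis. *MAM1* was at 166 and 186 RPKM in *dbp1Δ*, against 187 and 198 RPKM in wild type. Both *dbp1Δ* values were below both wild-type values, and as for *SGO1* the counting intervals of *dbp1Δ* replicate 2 and wild-type replicate 1 overlapped. The log2 fold change in limma was -0.13, with a standard error of 0.15 and an adjusted p of 0.9998. *CSM1* was at 155 and 156 RPKM in *dbp1Δ* and at 159 and 151 RPKM in wild type. It was the steadiest of the 10 genes, with a highest value 1.06 times the lowest. *LRS4* was at 26.5 and 19.0 RPKM in *dbp1Δ* (151 and 93 reads), against 21.7 and 20.7 RPKM in wild type (113 and 94 reads). The counting intervals of the *LRS4* libraries overlapped. *CSM1* exceeded *LRS4* in all 4 libraries, at 5.84 and 8.21 times in *dbp1Δ* and at 7.35 and 7.31 times in wild type. *MAM1* was at 1.07 and 1.19 times *CSM1* in *dbp1Δ* and at 1.17 and 1.31 times in wild type. The counting intervals of *MAM1* and *CSM1* overlapped in replicate 1 of both genotypes.

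Ordered by the mean over the 4 libraries, the levels fell into 4 tiers. *REC8* (196 ± 49.5 RPKM), *MAM1* (184 ± 13.3), *SGO1* (170 ± 18.0), *SPO13* (169 ± 30.2) and *CSM1* (155 ± 3.44; SD over 4 libraries of both genotypes for each) formed the top tier, in which each gene's range overlapped that of the next. *REC8* ranked first in *dbp1Δ* replicate 1 but at rank 4 in *dbp1Δ* replicate 2, and first in wild-type replicate 1 but at rank 3 in wild-type replicate 2, so its place at the top is not settled by these libraries. *IRR1*, *SMC1* and *SMC3* followed in this order in all 4 libraries, although their ranges overlapped. *LRS4* and then *MCD1* were below them, and neither range overlapped that of a neighbouring gene. Among all 5371 ORFs, the top tier lay between percentiles 82.5 and 85.2 of mean RPKM, the shared ring subunits between 58.4 and 67.8, *LRS4* at 39.4 and *MCD1* at 3.91.

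The comparison of *dbp1Δ* with wild type asks whether footprint density on these genes differs in meiosis when the helicase is lost. Footprint density depends on mRNA abundance as well as on translation of each mRNA, and mRNA was not analysed here. None of the 10 genes passed an adjusted p of 0.05 in limma, against 0.0375% of the 5338 ORFs tested (2 ORFs, the deleted *DBP1* among them). Of the 10, 0 had an unadjusted p under 0.05, against 1.67% of ORFs. The log2 fold changes lay between -0.37 (*MCD1*) and 0.15 (*REC8*), 5 above and 5 below 0, with a median of -0.01 beside -0.03 for all tested ORFs. Both *dbp1Δ* libraries lay above both wild-type libraries for 0 of the 10 genes, against 9.59% of ORFs, and below them for 2 of the 10, *SGO1* and *MAM1*, against 15.3% of ORFs. Without *dbp1Δ* replicate 2, 1 of the 10 genes passed (*REC8*, as above), in a fit that called 518 ORFs.

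**Figure D3:**
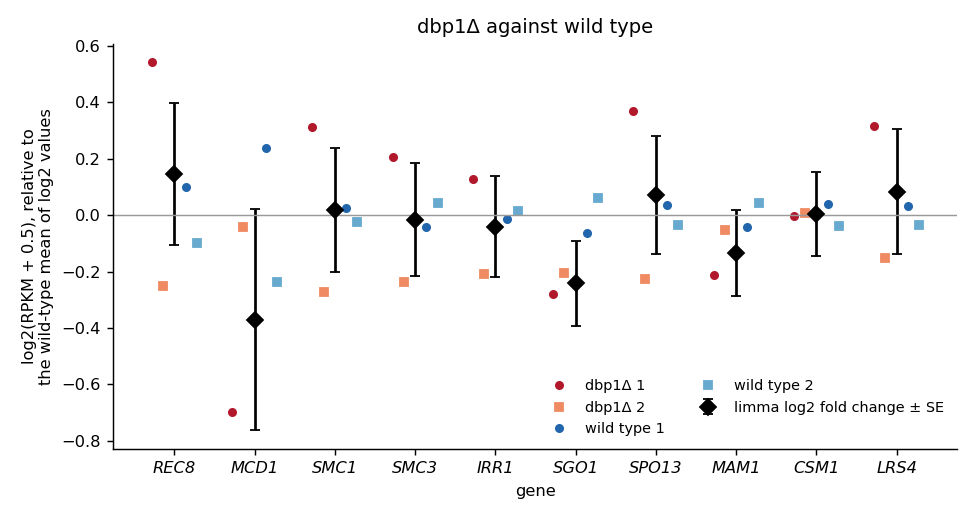
Values of the 10 genes in each library on the log2(RPKM + 0.5) scale, relative to the wild-type mean of the log2 values, with the limma log2 fold change of dbp1Δ over wild type (diamonds, bars are standard errors). The dbp1Δ libraries lie on either side of the wild-type libraries for REC8, SMC1, SMC3, IRR1, SPO13 and LRS4, and below them for SGO1 and MAM1.

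The larger contrast was between the *dbp1Δ* libraries themselves, and it divided the genes, as it divided the tested ORFs as a whole. Whether the counts of the 10 genes differ from the shares over all ORFs was not tested. *dbp1Δ* replicate 1 was the highest of the 4 libraries for 6 genes, *REC8*, *SMC1*, *SMC3*, *IRR1*, *SPO13* and *LRS4*, against 37.9% of all tested ORFs. It was the lowest for *MCD1*, *SGO1* and *MAM1*, 3 of the 10, against 35.9% of ORFs. The ratio of *dbp1Δ* replicate 1 to replicate 2 was 1.73 for *REC8*, 1.51 for *SPO13*, 1.51 for *SMC1*, 1.36 for *SMC3* and 1.26 for *IRR1*. For these 5 of the 10 genes the counting intervals of the *dbp1Δ* libraries did not overlap, against 40.0% of the 5278 tested ORFs with recovered reads. Between the wild-type libraries the intervals lay apart for 1 of the 10, *REC8*, at a ratio of 1.15, against 7.03% of these ORFs. Among ORFs with at least 100 reads a library the counts were 5 of 8 genes against 51.6% of ORFs in *dbp1Δ*, and 1 of 8 against 9.60% in wild type. The median absolute log2 difference of the 10 genes was 0.46 between *dbp1Δ* replicates and 0.08 between wild-type replicates, beside 0.31 and 0.12 for all tested ORFs.

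The same values can be set against each other as ratios within a library. *REC8* and *SPO13* were highest in *dbp1Δ* replicate 1, and *SGO1* and *MAM1* were lowest there. Ratios of the former to the latter were therefore bound to be highest in that library. The ratio of *REC8* to *SGO1* RPKM was 1.75 and 0.962 in *dbp1Δ*, against 1.11 and 0.886 in wild type. The ratio of *SPO13* to *MAM1* was 1.27 and 0.752 in *dbp1Δ*, against 0.894 and 0.804 in wild type. The ratio of *REC8* to *SPO13* lay between 1.07 and 1.26 in all 4 libraries, and it too was highest in *dbp1Δ* replicate 1.

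The early marker genes and most of the middle ones also differed between the *dbp1Δ* libraries, in opposite directions. All 18 early meiotic genes were higher in *dbp1Δ* replicate 1 than in *dbp1Δ* replicate 2, with a median log2 ratio of 0.71. Their log2 ratios ran from 0.01 (*MER2*) to 0.995 (*SPO11*). Over the 5338 tested ORFs, 2905 were higher in *dbp1Δ* replicate 1, with a median log2 ratio of 0.05. *dbp1Δ* replicate 1 was the highest of the 4 libraries for 16 of the early genes, against 37.9% of ORFs. Of the 18 middle meiotic genes, 5 were higher in *dbp1Δ* replicate 1 than in *dbp1Δ* replicate 2, and the median log2 ratio over the 18 was -0.23. These 5 were *SPS4* (log2 ratio 1.14), *SSP2* (0.73), *AMA1* (0.70), *SPR3* (0.08) and *SPS1* (0.01). *dbp1Δ* replicate 1 was the lowest library for 13 of the middle genes, against 35.9% of ORFs, and the highest for 4. Between the wild-type libraries the medians were 0.12 for the early and -0.01 for the middle genes. The 4 late sporulation genes in the table went both ways. *DIT1* was at 243 and 76.5 RPKM in *dbp1Δ*, against 34.1 and 41.5 RPKM in wild type, whereas *SPS100* (1.13 and 2.84 RPKM in *dbp1Δ*, against 5.54 and 4.47 RPKM in wild type), *CDA1* and *CDA2* were lowest in *dbp1Δ* replicate 1. *REC8* and *SPO13* are themselves known as genes of the early program. The part of meiotic timing in the difference between the *dbp1Δ* libraries was not tested, and with 1 such library it cannot be told apart from the culture or its processing.

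**Figure D4:**
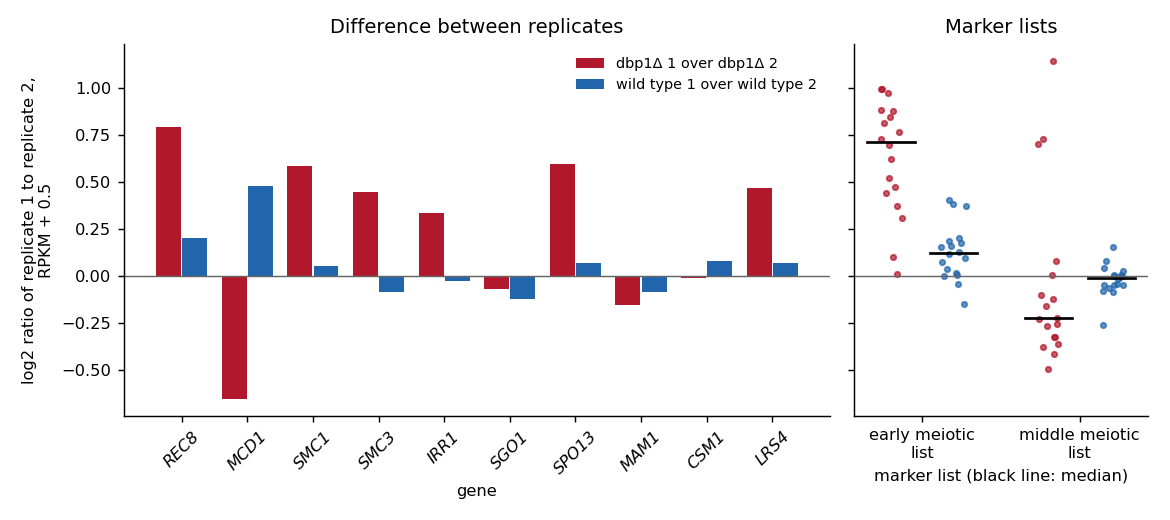
Log2 ratio of replicate 1 to replicate 2 for the 10 genes (left) and for the early and middle meiotic marker genes (right, 1 point for each gene, black lines are medians), in dbp1Δ (red) and wild type (blue), from RPKM + 0.5. In dbp1Δ the 10 genes run from -0.66 (MCD1) to 0.79 (REC8), with SGO1 at -0.07 and MAM1 at -0.16. In wild type SGO1 is at -0.12 and MAM1 at -0.08. The medians in dbp1Δ are 0.71 for the early genes and -0.23 for the middle genes.

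How unusual these spreads are can be read against the 3384 ORFs that had 100 or more reads in each of the 4 libraries, 8 of the 10 genes among them. The highest value of *REC8* was 1.73 times its lowest, at percentile 95.2 of these ORFs, and *SPO13* and *SMC1* were at percentiles 85.1 and 84.8. *IRR1* and *SGO1*, at percentiles 47.6 and 48.1, were near the median ratio of 1.27. *CSM1* was at percentile 1.42.

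The ORFs whose pattern over the 4 libraries was closest to that of *REC8*, by Euclidean distance between log2(RPKM + 0.5) values centred on each ORF's mean, were *SWA2* (distance 0.01), *ZIP1* (0.05) and *EMC1* (0.05), among 4255 ORFs averaging 10 RPKM or more. *ZIP1*, which encodes the central element of the synaptonemal complex, was at 252 and 148 RPKM in *dbp1Δ* and at 188 and 169 RPKM in wild type. Of the other 9 genes, *SPO13* (0.18) and *SMC1* (0.22) were the nearest to *REC8* and *MCD1* (1.16) the farthest. For *MCD1* the closest ORFs were YML020W (0.05), *TAD3* (0.13) and *BCH2* (0.17). With 4 libraries such distances are a description only.

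Genes of the same pathways were compared in the same fit. In 7 lists covering cohesin loading, acetylation and release, cleavage, protection, monopolin recruitment, condensin and the Smc5/6 complex, 44 genes were tested, of which 0 passed an adjusted p of 0.05 and 0 an unadjusted p under 0.05 in limma, against the 0.0375% and 1.67% of all ORFs given above. Their median log2 fold change was -0.09. *dbp1Δ* replicate 1 was the highest library for 13 of the 44 and the lowest for 15, against 37.9% and 35.9% of ORFs.

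Cohesin is loaded by Scc2 and Scc4 and stabilised on chromosomes by Pds5. *SCC2* was at 110 and 62.0 RPKM in *dbp1Δ*, against 82.8 and 77.3 RPKM in wild type, and *PDS5* at 46.5 and 29.6 RPKM in *dbp1Δ*, against 38.0 and 38.4 RPKM in wild type. In both, *dbp1Δ* replicate 1 was the highest library and *dbp1Δ* replicate 2 the lowest. *SCC4* was at 19.9 and 20.8 RPKM in *dbp1Δ*, against 18.0 and 20.5 RPKM in wild type, and so did not share this order. *ESP1*, encoding separase, was at 38.6 and 44.6 RPKM in *dbp1Δ*, against 47.3 and 42.2 RPKM in wild type. *PDS1*, encoding its inhibitor securin, was at 449 and 681 RPKM in *dbp1Δ*, against 614 and 624 RPKM in wild type, and had the largest change of the cleavage list, a log2 fold change of -0.16 (standard error 0.21).

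*RTS1*, the PP2A subunit that works with shugoshin, was at 74.9 and 82.3 RPKM in *dbp1Δ*, against 86.8 and 84.9 RPKM in wild type. *HRR25*, the kinase of monopolin, was at 838 and 1003 RPKM in *dbp1Δ*, against 1028 and 1063 RPKM in wild type, far above the other monopolin subunits in every library. For both genes the *dbp1Δ* values lay below the wild-type values, with log2 fold changes of -0.13 and -0.19 and an adjusted p of 0.9998 each from limma. The same held for 10 of the 44 genes, beside 15.3% of all tested ORFs, and both *dbp1Δ* libraries lay above both wild-type libraries for 1 of the 44, beside 9.59%. In the remaining lists the largest log2 fold changes were 0.08 for *SCC4*, -0.53 for *HOS1*, the deacetylase of Smc3, 0.18 for *PPH21*, 0.30 for *FOB1*, -0.18 for *BRN1* and 0.21 for *NSE1*, and the unadjusted p of *HOS1*, the smallest of these, was 0.0555.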

How the data were processed

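The values deposited by the authors are RPKM per ORF, made from footprint reads aligned to SK1 by dividing raw reads by library size and gene length, with no further scaling between libraries and no pooling of replicates. Bowtie2 is named in the submitters' processing notes, with no version. Which annotation was used, and whether ORFs were filtered, is not given in the sources used here.

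Genotype and replicate come from the sample labels. A linear model with genotype as its term was fitted to log2(RPKM + 0.5) by lmFit and trended eBayes (limma 3.58.1, R 4.3.3) for the 5338 ORFs averaging 1 RPKM or more, with Benjamini-Hochberg adjustment over all of them. Fold changes on this scale understate those of ORFs with low RPKM. The fit was tested on simulated reads. Other steps used scipy 1.17.1, pandas 2.3.3, numpy 2.4.6 and matplotlib 3.10.9 under Python 3.11.15.

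Depth was recovered from the steps of the RPKM values, after subtracting 60 nt from the ORF lengths of the S288C annotation (assembly R64), which has a row for 5311 of the 5371 ORFs. Within 0.05 of a read, 89.3% of values came out whole, and all 40 values of the 10 genes did. The recovery was tested on simulated reads. The counting intervals were computed within each library, so they describe counting error alone and no variation between cultures. Amplified reads are not independent molecules, so the intervals can be too narrow even for counting error. In R64 no annotated gene overlaps any of the 10 genes. Coordinates and sequences are not given.

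The 10 genes, the marker and pathway lists (built from symbols) and the tests were chosen with earlier results of these data known, so no test was made on a list. Named were all 10 genes, *DBP1*, 6 direct partners, the largest change of each pathway list, and the 3 ORFs most like *REC8* and *MCD1*. The correlation of deviations between same-numbered libraries was -0.135 over 5338 ORFs. With 2 libraries of each genotype it cannot show whether the numbers pair them, and the main fit was made without a block. Alternatives were other pseudocounts (0.1, 1), no filter or a mean of 10 RPKM, quantile normalization, median centring, untrended eBayes, a replicate block, limma voom on recovered reads and leaving out each library, and a crossed block was added after the data were seen.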

Additional observations from a re-analysis of the deposited data

How the results depend on the processing

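The count of ORFs with an adjusted p under 0.05 in limma was 2, as it was with other pseudocounts, filters, scalings and without the trend. It was 25 with the replicate number as a block, 24 when median centring was added to that replicate block, 28 with the crossed block (chosen after seeing the data), 1 with limma voom on recovered reads, and 1 to 518 with each library left out, highest without *dbp1Δ* replicate 2. Of the 10 genes 0 passed in each of these fits, except without *dbp1Δ* replicate 2, where 1 did (*REC8*). The replicate block changed no call among the 10 genes.

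The median log2 fold change of the 10 genes ranged from -0.21 without *dbp1Δ* replicate 1 to 0.17 without *dbp1Δ* replicate 2. Near 0, signs turned: *SMC3* was at 0.0021 with median centring, with or without the replicate block, and at 0.0039 with quantile normalization, where *IRR1* was at 0.0015. With each library left out the log2 fold change ranged from -0.25 to 0.54 for *REC8*, -0.27 to 0.31 for *SMC1*, -0.24 to 0.21 for *SMC3*, -0.21 to 0.13 for *IRR1*, -0.23 to 0.37 for *SPO13*, -0.15 to 0.32 for *LRS4* and -0.036 to 0.041 for *CSM1*. It stayed below 0 for *MCD1* (-0.70 to -0.04), *SGO1* (-0.30 to -0.18) and *MAM1* (-0.21 to -0.05), with *dbp1Δ* replicate 1 left out giving the values nearest 0 for *MCD1* and *MAM1*. Of 109 values under the other alternatives, 105 kept their sign and side of the threshold and 4 turned sign. Many of these signs were fixed in advance. The filters, untrended eBayes, the replicate block and the crossed block leave each log2 fold change as it was, so only its p could differ. Signs could turn only under the other pseudocounts, the scalings and limma voom. The filter at 10 RPKM left *MCD1* untested. Depth limits *MCD1*, at 16 to 32 reads a library, and *LRS4*, at 93 to 151, more than the others.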
